A study of Mus musculus with 4 samples.

Results

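In mouse pancreatic ductal adenocarcinoma, gemcitabine (G), paricalcitol plus hydroxychloroquine (PH) and all 3 drugs together (GPH) were each given to a group of animals, and a PBS group served as control. Because both regimens occur alone and combined, the 4 groups form a 2 by 2 design. It was asked for each gene how far the level in GPH stood from the level that the 2 regimens would give together if their log ratios to control simply added. This distance is called the departure from additivity: the log2 level in GPH, minus that in G, minus that in PH, plus that in control. It was taken over tumour cells, defined as barcodes with at least 5000 unique molecular identifiers (UMIs, each counting 1 captured RNA molecule), at most 20% mitochondrial UMIs, the mesenchymal filament gene Vim at 20 or more per 10000 UMIs, at least 1 UMI of the cell cycle inhibitor gene Cdkn2a, the leukocyte genes Ptprc and Laptm5 together under 2 per 10000, and the ductal keratin gene Krt19 under 10 per 10000. These were 19596 of 56375 barcodes. A gene counted as measured when it reached 50 CPM (UMIs of the gene per 1000000 UMIs of the tumour cells) in at least 1 library, which held for 2639 of 32245 gene symbols.

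Each group was 1 droplet library made from tumour pieces taken from 3 animals together, so no value has a replicate and no difference was tested. The control group received PBS, the PH group paricalcitol and hydroxychloroquine, and the G group gemcitabine. For GPH the title gives the letters of all 3 drugs, while its treatment label gives gemcitabine at 60 mg per kg into the peritoneum and then breaks off. The label of the G group gives no gemcitabine dose, so whether G and GPH received the same dose is not known. Doses of the other agents, the schedule, the strain and the age of the animals, and how the tumours arose, are not given in the sources used here. The submitters' design text names the question: whether paricalcitol and hydroxychloroquine make the tumour more sensitive to gemcitabine, with autophagy and endoplasmic reticulum (ER) stress genes as its readouts.

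Gemcitabine is a nucleoside analogue that is phosphorylated in the cell, stalls DNA synthesis and inhibits ribonucleotide reductase. Hydroxychloroquine collects in lysosomes and raises their pH, which stops autophagosomes from being degraded. Paricalcitol activates the vitamin D receptor, a nuclear receptor found above all in the stromal cells of this tumour. When cells lack amino acids or hold unfolded protein, the integrated stress response slows translation and lets the transcription factor ATF4 be made, which switches on genes such as Ddit3 and Atf3.

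Control held 6975 tumour cells, PH 9822, G 1460 and GPH 1339, with 129705522, 154471644, 24870616 and 27151544 UMIs and median depths from 11893 UMIs a cell in PH to 16018 in GPH. Between 1 and 17 cell barcodes were shared by 2 libraries among the tumour cells. All 5 markers of the rule (Vim, Cdkn2a, S100a6, Sparc and Cd44) exceeded 20 CPM in every library. Of 8 macrophage markers at most 2 did so, of 5 neutrophil markers 2 in G alone, and none of the endocrine, red blood cell or acinar markers did. Ductal markers summed to between 895 CPM in GPH and 1450 in PH, and fibroblast markers to between 443 in PH and 1289 in GPH. The libraries also differed in cell state. Mitotic cells, with Top2a, Mki67, Cenpf and Ube2c together at 2 or more per 10000, were 29.9% of control (exact 95% binomial interval 28.8 to 31.0), 29.8% of PH (28.9 to 30.7), 38.8% of G (36.3 to 41.3) and 13.4% of GPH (11.7 to 15.4). Cells with at least 1 UMI of the matrix genes Dcn or Dpt were 57.2%, 44.6%, 47.5% and 81.1% of the 4 libraries in that order. With each cell thinned to 5000 UMIs, these shares became 41.5%, 40.8%, 47.1% and 24.3% for mitotic cells and 40.8%, 29.1%, 32.3% and 62.4% for cells with Dcn or Dpt. GPH thus had the fewest mitotic cells and the most cells with Dcn or Dpt at equal depth too, and control and PH lay within counting error of each other in mitotic cells. A sum of 3 Y-linked genes was under 1 CPM in control and PH, 9.93 in G and 13.7 in GPH.

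Most genes lay within 1.5-fold of additivity, and those that did not more often stood above it. Of the 2639 genes, 1727 were within 1.5-fold of the additive level, 600 stood 1.5-fold or more above it (22.7% of all genes) and 312 stood 1.5-fold or more below it (11.8%). The median departure was 0.11 on the log2 scale. For 505 of the 600 and 255 of the 312, the whole 95% counting interval lay past 1.5-fold. These intervals come from the 4 UMI counts alone and say nothing of the spread between animals. With libraries scaled by the median of gene ratios instead of total UMIs, the median of all genes moved by -0.13 and the split became 468 above and 444 below. The share of departures that were upward thus was 65.8% or 51.3%, and it was 58.7% with 50 CPM required in every library. Departures are best read against the median of all genes. At the edge of the threshold, Raly had a departure of 0.59 and Rnh1 one of 0.58, a difference far inside their counting intervals.

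**Figure D1:**
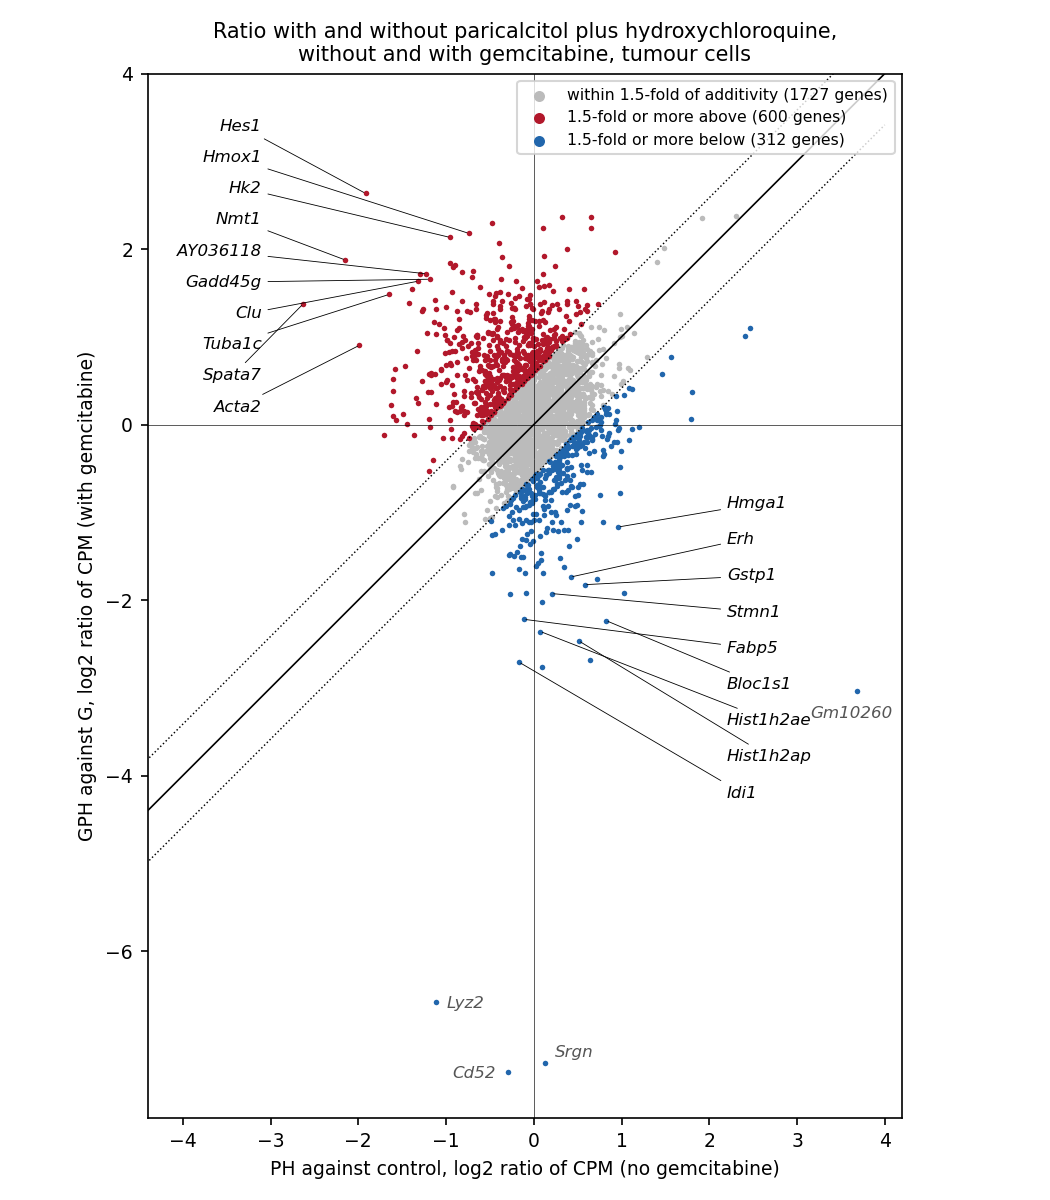
Each point is 1 of 2639 genes, with the log2 ratio of CPM in PH against control on the x axis and in GPH against G on the y axis, so the vertical distance from the diagonal is the departure. Dotted lines mark 1.5-fold, and 19 named genes and 4 others discussed in the text carry labels. Genes above the lines are mostly near 0 or left of 0 on the x axis, and genes below them mostly near 0 or right of it.

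The departures took a few forms. Among the 600 upward genes, 290 differed by less than 1.5-fold between PH and control but were at least 1.5-fold higher in GPH than in G. Another 81 were lower in PH than in control and within 1.5-fold between GPH and G, and 87 were lower in PH than in control yet higher in GPH than in G. Of the rest, 136 were within 1.5-fold in both ratios and 6 were higher in both. Of the 312 downward genes, 159 were within 1.5-fold between PH and control and lower in GPH than in G, and 63 were higher in PH than in control but within 1.5-fold between GPH and G.

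In most upward genes GPH held the highest of the 4 levels. It did so in 453 of the 600, control did in 145, G in 2 and PH in none. GPH held the lowest level in 222 of the 312 downward genes and control in 88. GPH and control enter the departure with a plus sign, and PH and G with a minus sign. The low counts for PH and G among the highest levels are thus largely set by the definition. Counted by the library that stood at least 1.5-fold apart from each of the other 3, GPH was above them for 311 genes (11.8%) and below them for 137 (5.19%). Control was above for 23 genes (0.872%) and below for 43 (1.63%), PH above for 11 (0.417%) and below for 44 (1.67%), and G above for 15 (0.568%) and below for 13 (0.493%). In 43 genes (1.63%), some of them also among those counts, both control and GPH stood 1.5-fold or more above both PH and G, and in 6 (0.227%) they stood below. This last split has the same signs as the departure itself, so an effect of combining the drugs and any other difference between these library pairs cannot be told apart.

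Levels below are CPM in tumour cells and, where 4 are given, are in the order control, PH, G and GPH. The gene with the highest departure was Hes1, a transcriptional repressor switched on by Notch (ENSMUSG00000022528, mm10 chromosome 16, 30064384 to 30067796, plus strand). It stood at 391, 104, 97.4 and 605 CPM, with exact Poisson intervals of 387 to 394, 102 to 105, 93.6 to 101 and 595 to 614. Each regimen alone thus went with a low level, and GPH held more than control, against an additive level of 25.8 CPM and with a departure of 4.55 (95% counting interval 4.48 to 4.62). Hk2, the hexokinase of the first step of glycolysis (chromosome 6, 82725025 to 82774454, minus strand), was likewise low in PH and G and highest in GPH, at 423, 218, 244 and 1071 CPM and had a departure of 3.09 (3.04 to 3.13). Gadd45g, a stress-induced binding partner of MAP kinase kinase kinases (chromosome 13, 51846678 to 51848468), was at 537, 236, 196 and 619 CPM, a departure of 2.84. AY036118, a noncoding transcript on chromosome 17, was at 482, 206, 216 and 711 CPM, a departure of 2.94.

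Nmt1, which attaches myristate to proteins (chromosome 11, 103028190 to 103068912), was equally low in both single regimens, at 112, 25.4, 26.9 and 98.5 CPM. Its departure was 4.02 (3.89 to 4.15), although GPH did not exceed control. Tuba1c, an alpha-tubulin (chromosome 15, 99029891 to 99038110), was at 145, 46.2, 53.7 and 150 CPM, with a departure of 3.13. Spata7, a protein of the photoreceptor connecting cilium (chromosome 12, 98628157 to 98669815), was highest in control, at 193, 31.3, 33.6 and 87.1 CPM, with a departure of 4.0. In these 3 genes PH and G were low and GPH lay near or below control.

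For 3 of the 10 highest genes, GPH was above and PH below each other library. Hmox1, the haem-degrading enzyme haem oxygenase 1 (chromosome 8, 75093621 to 75100589), stood at 95.4, 57.1, 124 and 563 CPM, with a departure of 2.92 (2.85 to 2.99). Clu, the extracellular chaperone clusterin (chromosome 14, 65968483 to 65981547), was at 32.7, 13.1, 95.7 and 297 CPM, a departure of 2.95. Acta2, smooth muscle actin (chromosome 19, 34241090 to 34255590), was at 89.3, 22.5, 109 and 204 CPM, a departure of 2.89. In cells with Dcn or Dpt outside mitosis, the departures were 1.90 for Hmox1, 2.13 for Clu and 2.0 for Acta2.

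**Figure D2:**
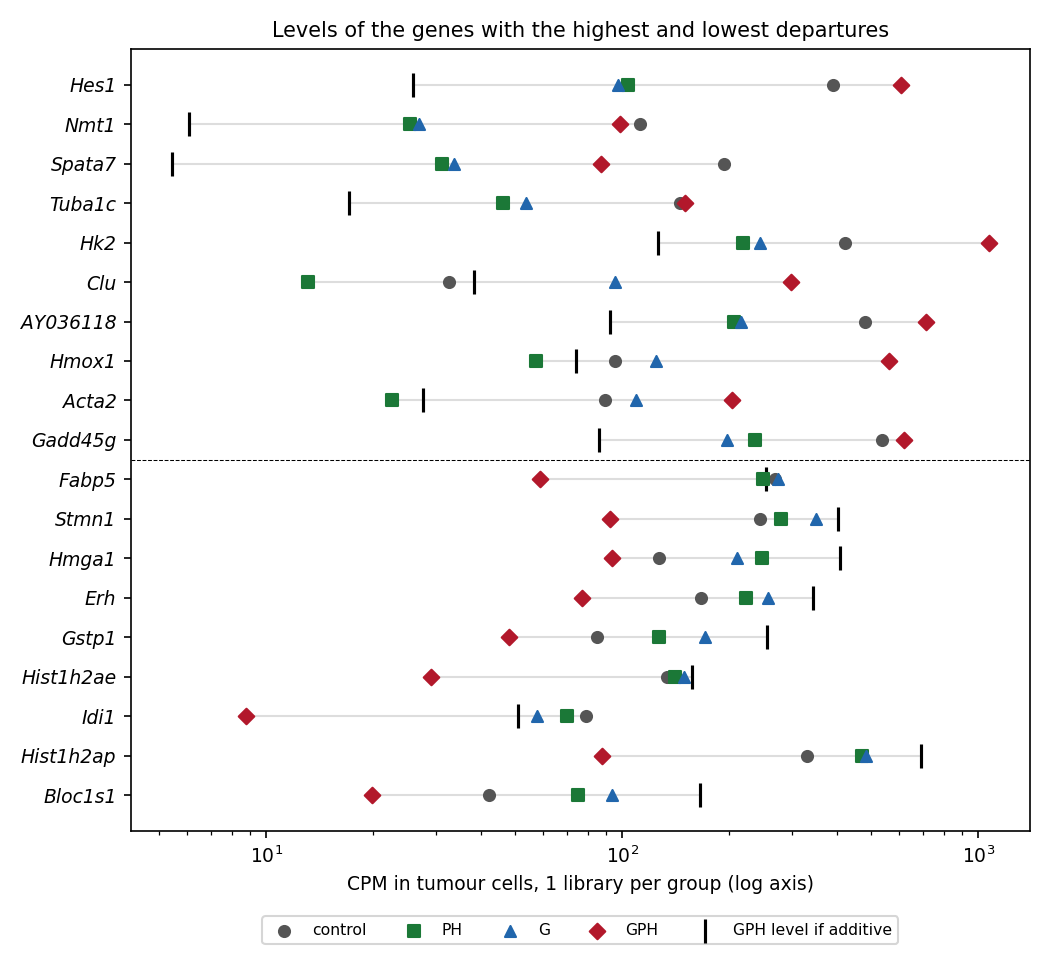
CPM (log x axis) of the 10 genes with the highest and 9 of the 10 with the lowest departures, 1 symbol per library, with a vertical tick at the level GPH would have if the log ratios added. Above the dashed line GPH lies right of its tick, and below it GPH lies left of its tick and of all 3 other libraries.

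Among 9 of the 10 lowest genes, which are described here, GPH had the lowest level in each. Bloc1s1, a subunit of a complex that forms lysosome-related organelles (chromosome 10, 128917882 to 128924035), was at 42.4, 75, 93.4 and 19.9 CPM, a departure of -3.06. PH and G exceeded control and GPH was below it. Hmga1, a chromatin architecture protein, had the same order at 127, 247, 210 and 93.6 CPM, and Gstp1, a glutathione transferase, at 84.7, 127, 170 and 48.1. Their departures were -2.13 and -2.41.

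Idi1, the isopentenyl isomerase of sterol synthesis, was at 78.9, 70.2 and 57.5 CPM in control, PH and G and at 8.80 in GPH (departure -2.54). Fabp5, a fatty acid carrier, likewise was at 269, 249, 274 and 58.8 CPM (-2.11). The histone genes Hist1h2ap (330, 470, 483 and 87.6 CPM) and Hist1h2ae (134, 141, 149 and 29.0) had departures of -2.98 and -2.43. Stmn1, which takes microtubules apart, was at 243, 280, 350 and 92.1 CPM (-2.13), and Erh, a small RNA-processing protein, at 166, 223, 257 and 77.1 (-2.16). Histones and Stmn1 are made above all by dividing cells. When the 4 combinations of mitotic or not and with or without Dcn or Dpt were given the same weight in every library, the departures became -1.58 for Hist1h2ap, -1.02 for Hist1h2ae and -1.09 for Stmn1. With mitotic cells left out, they were -2.05 for Hist1h2ap and -2.64 for Stmn1, and Hist1h2ae had no value. The part of cell division in these departures was not tested.

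Genes outside the naming rule held the lowest departures of all and are given here because of their values. The leukocyte genes Srgn (13.2, 14.4, 51.5 and 0.331 CPM), Cd52 (24.4, 19.9, 79.5 and 0.479) and Lyz2 (33.0, 15.3, 67.0 and 0.70) had departures of -7.41, -7.09 and -5.47. In G, where each was highest, its level was under 1/10 of that in immune or keratin-high cells of the same library. Immune cells, with Ptprc and Laptm5 together at 2 or more per 10000, numbered 523, 586, 3751 and 37, so G held the most and GPH the fewest. Summed macrophage markers in the tumour cells were at 83.3, 61.3, 160 and 24.2 CPM, likewise highest in G and lowest in GPH. The part of free RNA in these 3 genes was not tested. Gm10260, a predicted gene, was at 4.32, 55.3, 44.4 and 5.41 CPM, a departure of -6.71, with control and GPH together at the low end.

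The split of control and GPH from PH and G also appeared in barcodes outside the tumour cell rule, which were not the same kind of cells in each library. Immune barcodes held the tumour cell marker Cdkn2a at 495, 480, 80.8 and 17.3 CPM, so those of control and PH carried more tumour cell RNA. Keratin-high barcodes held Cdkn2a at 895, 1009, 240 and 299 CPM. There the 9 ductal markers summed to 3084, 4418, 13018 and 16733 CPM, with Tff1 at 0, 0, 3110 and 2341. The fibroblast markers summed to 305, 256, 20.3 and 19.6 CPM. By these sums G and GPH were the more ductal there. Epcam (0, 128, 6.90 and 3.17 CPM) and Cldn4 (0, 25.5, 0.63 and 0.29) went the other way and were highest in PH. The part of these differences in the departures below was not tested. Among the 43 genes with control and GPH above, 27 could be measured in immune cells (at least 20 UMIs in each library) and 25 of these were 1.5-fold or more above additivity there, against 19.7% of all genes. In keratin-high cells (Krt19 at 10 or more per 10000; 173, 225, 1276 and 1944 cells) it was 39 of 41, against 16.3%. The departure of Nmt1 was 4.31 in immune and 3.98 in keratin-high cells, that of AY036118 3.42 and 3.28, that of Tuba1c 2.86 and 3.99, that of Hes1 3.25 and 3.75, and that of Hk2 3.05 and 2.08. Gadd45g, which also splits the library pairs, was lower, at 0.87 and 1.72. The immune values rest on 37 GPH cells with 462438 UMIs, of which Nmt1 had 76 and Hes1 29. Hmox1, which does not split the pairs, stood at 0.13 in immune and 1.31 in keratin-high cells, and Clu, likewise, at 1.00 and 0.48. Malat1, an abundant nuclear RNA, was on the same side at 20047, 10331, 10651 and 38213 CPM, a departure of 2.80. Whether a difference in library preparation or in animals goes with this split was not tested.

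**Figure D3:**
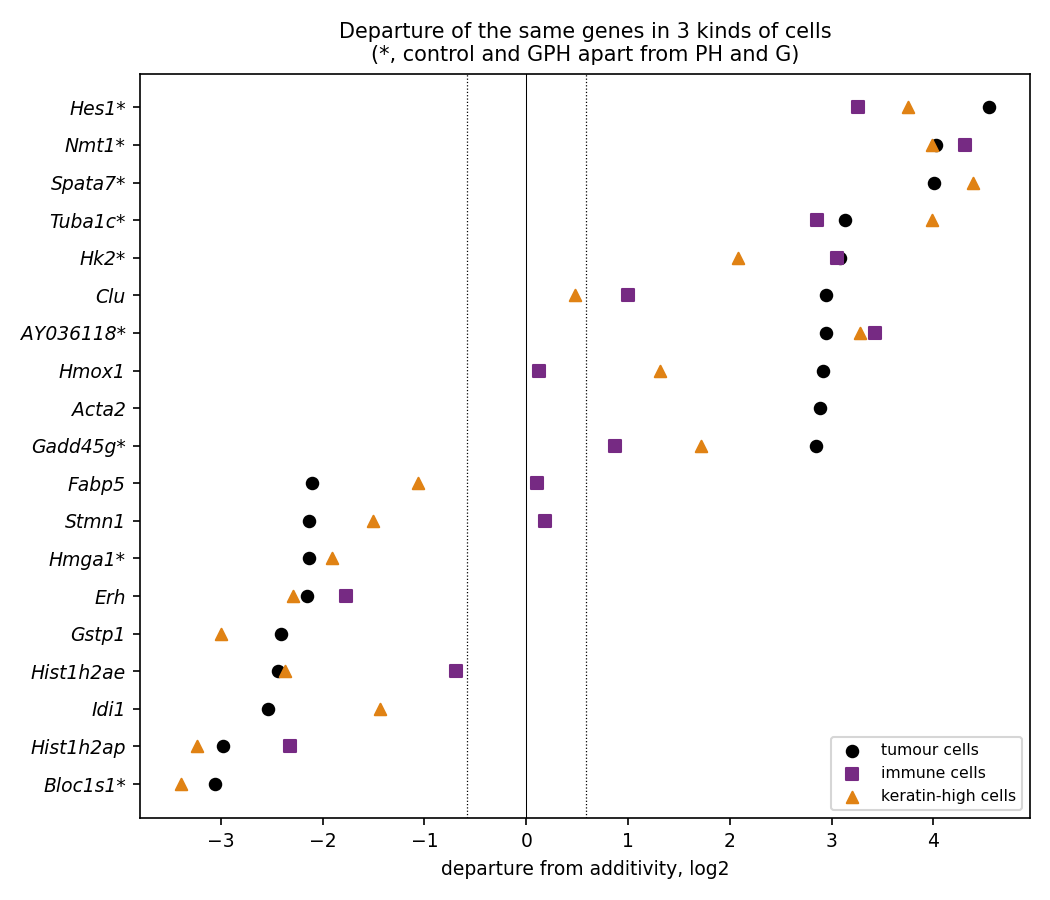
Departure (log2) of the same 19 genes in tumour, immune and keratin-high cells, where each library had at least 20 UMIs. Genes with an asterisk are those that divide the library pairs, and for Hes1, Nmt1, Hk2, Tuba1c and AY036118 all 3 kinds of cells lie past 2 on the same side, while Hmox1, Stmn1 and Fabp5 are near 0 in immune cells (0.13, 0.19 and 0.11).

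Genes of the lysosome, the organelle in which hydroxychloroquine collects, stood above additivity nearly throughout. Of 27 listed genes 15 were measured, and 13 of them were 1.5-fold or more above and none below, with a median departure of 0.77 against 0.11 for all genes. Over all genes 22.7% stood above and 11.8% below, and the counts in this and the following lists are read against these shares. Ctsb, the protease cathepsin B (ENSMUSG00000021939, chromosome 14, 63122462 to 63145923), was at 132, 125, 141 and 380 CPM, with exact Poisson intervals of 373 to 387 in GPH and 136 to 145 in G. The first 3 libraries were close to each other and GPH was well above, a departure of 1.51 (1.44 to 1.57). Lamp2, a membrane protein of the lysosome, was at 122, 119, 121 and 232 CPM (0.97), Ctsd, the protease cathepsin D, at 126, 116, 97.5 and 204 (1.19), Grn, the precursor of lysosomal granulins, at 76.1, 65.8, 70.1 and 139 (1.20), and Psap, the precursor of the saposins, at 87.4, 87.0, 81.5 and 162 (1.00). The 2 genes within 1.5-fold were Npc2, a sterol carrier, at 423, 401, 377 and 477 CPM (0.42), and the proton pump subunit gene Atp6v1a, at 30.5, 55.1, 42.8 and 55.9 CPM (-0.47), while the pump subunit gene Atp6v0d1 was at 68.2, 49.6, 48.8 and 77.7 (1.13). In 6 lysosomal genes GPH was 1.5-fold or more above each other library. With the 4 cell states weighted alike, the median was 0.64. The list was less one-sided outside the tumour cells. In immune cells its median was 0.44, with 5 of 15 genes above and 1 below, against 19.7% and 10.2% of all genes. In keratin-high cells it was 0.43, also with 5 of 15 above and 1 below, against 16.3% and 18.5%.

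Autophagy genes were more mixed. Only 9 of 30 listed genes were measured, 4 of which stood above additivity and none below, with a median of 0.40. The ATG8-family genes, whose proteins coat autophagosomes, gave 3 of the 4: Gabarapl1 at 50.2, 44.4, 32.6 and 67.9 CPM (departure 1.23), Gabarap at 857, 539, 623 and 875 (1.16) and Map1lc3a at 168, 97.2, 96.7 and 122 (1.12). In Gabarap and Map1lc3a the level in GPH was near or below control, and PH and G were lower than either. Sqstm1, the cargo receptor p62, was at 278, 322, 321 and 594 CPM (0.68) and Map1lc3b at 239, 248, 233 and 285 (0.23). Bnip3 and Bnip3l, both mitophagy receptors, stood at -0.13 and -0.22. In cells with Dcn or Dpt outside mitosis the median of the list was 0.15.

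ER chaperones were close to additive. Of 15 measured genes 3 stood above, none below and 12 between, with a median of 0.10 against 0.11 for all genes (-0.02 under median-of-ratios scaling). Hspa5, the main ER chaperone BiP, was at 587, 469, 950 and 894 CPM, so G and GPH were alike and the departure was 0.23. Hsp90b1 (433, 378, 609 and 543 CPM) and Calr (499, 522, 641 and 719) gave 0.03 and 0.10. The count above is no more than the 22.7% of all genes would give. The 3 genes were Xbp1, a transcription factor of the unfolded protein response, at 52.1, 30.2, 53.8 and 79.9 CPM (1.36), Derl1, a channel of ER-associated degradation, at 52.3, 34.1, 49.7 and 77.3 (1.25), and the disulfide isomerase gene Pdia4 at 77.0, 52.3, 57.9 and 69.5 (0.82).

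The integrated stress response list had 10 measured genes, of which 6 stood above additivity and 2 below (median 1.42). The 4 highest were transcription factors or chromatin proteins. Ddit3, which encodes CHOP (chromosome 10, 127290774 to 127296288), was at 43.5, 23, 34.4 and 119 CPM, with GPH above and PH below the rest, and had a departure of 2.71 (2.59 to 2.84). Atf4 itself was at 132, 95.7, 97.1 and 234 CPM (1.74), Atf3, a stress-induced repressor, at 204, 123, 198 and 480 (2.01), and Nupr1, a small chromatin protein induced by stress, at 169, 93.7, 143 and 331 (2.05). Ppp1r15a, which ends the response by reactivating translation, was at 76.1, 79.2, 64.3 and 191 CPM (1.51). In all 5 the GPH level was at least 1.5-fold above each other library. The 2 below additivity were metabolic genes. Slc7a11, the cystine importer (chromosome 3, 49892526 to 50443614), was at 12.0, 66.1, 25.8 and 55.2 CPM (-1.37), with PH and GPH the high libraries, and Psat1, of serine synthesis, at 51.7, 74.9, 76.2 and 55.3 (-1.0). Slc3a2, the heavy chain that pairs with Slc7a11, stood above at 104, 89.5, 107 and 228 CPM (1.32), and Phgdh, the first enzyme of serine synthesis, was within 1.5-fold (0.29), as was the transcription factor gene Cebpb at 611, 557, 494 and 676 (0.58). Slc7a11 had -0.35 in cells without Dcn or Dpt, -2.0 without mitotic cells and -2.69 in cells with Dcn or Dpt outside mitosis. Over all the settings that were tried the list median ran from 0.60, with genes at 20 CPM admitted, to 1.49. In immune cells the list median was 0.40, with 3 of 9 genes above and 1 below, against 19.7% and 10.2% of all genes. In keratin-high cells it was 1.02, with 7 of 10 above and 0 below, against 16.3% and 18.5%. Ddit3, the highest member in tumour cells, had a departure of 1.91 in immune and 2.35 in keratin-high cells.

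ATF4 binds elements with the letters TGATGNAA, on either strand. Of the 10 measured members, 3 carried that motif in the 250 bases before their start (RefSeq, GRCm38.p6), against 3.45% of 32851 promoters. Here and below, a gene counts if any of its promoters matches, while the share is per single promoter, so the 2 are not quite alike. They are shown because Atf3 and Nupr1 lie on one side of additivity and Slc7a11 on the other. Capitals mark the motif, read on the gene's own strand, where TTGCATCA is its reverse complement. The windows are chr1:191183334-191183583, chr7:126625471-126625720 and chr3:50443614-50443863, all on the minus strand.
Atf3: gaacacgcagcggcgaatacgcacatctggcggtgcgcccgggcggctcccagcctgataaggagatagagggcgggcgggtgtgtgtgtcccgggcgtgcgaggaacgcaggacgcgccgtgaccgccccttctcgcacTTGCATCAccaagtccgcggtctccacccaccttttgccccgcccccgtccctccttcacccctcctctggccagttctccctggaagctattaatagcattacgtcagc
Nupr1: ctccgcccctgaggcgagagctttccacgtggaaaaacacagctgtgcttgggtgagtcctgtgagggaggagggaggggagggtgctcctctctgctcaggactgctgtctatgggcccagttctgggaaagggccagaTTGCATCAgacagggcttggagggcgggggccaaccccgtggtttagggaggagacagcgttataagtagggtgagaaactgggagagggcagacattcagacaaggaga
Slc7a11: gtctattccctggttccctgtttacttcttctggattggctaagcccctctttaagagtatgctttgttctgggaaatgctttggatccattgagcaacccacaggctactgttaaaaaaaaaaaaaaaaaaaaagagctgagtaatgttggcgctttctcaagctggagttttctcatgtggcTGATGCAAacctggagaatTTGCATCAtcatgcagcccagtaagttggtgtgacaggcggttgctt
Atf3 and Nupr1 hold 1 match each and Slc7a11 holds 2 in opposite orientations. With 3 windows nothing is read from the number of matches, and a match is a run of letters and was not tested as a binding site.

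Of the genes nearest to the other drugs, few were measured. For the vitamin D receptor list 3 of 12 genes passed 50 CPM. Vdr itself was at 3.07, 1.68, 2.05 and 2.47 CPM, and Cyp24a1, the usual first target of the receptor, had 1, 3, 0 and 0 UMIs in the 4 libraries. Spp1, which encodes osteopontin, was at 1463, 1554, 2099 and 5055 CPM, a departure of 1.18 with GPH more than 1.5-fold above the others. Gemcitabine transport and target genes gave 6 measured of 19, with 1 above, 2 below and a median of -0.32. The 2 below were the nucleoside diphosphate kinase genes Nme1 (452, 458, 498 and 285 CPM, -0.83) and Nme2 (2519, 2501, 2821 and 1831, -0.61). The nucleoside transporter gene Slc29a1 was at 70.0, 69.2, 52.6 and 56.1 CPM (0.11), and Samhd1, which cleaves nucleotides and their analogues, at 78.4, 82.9, 85.1 and 144 (0.67). Dck, which adds the first phosphate to gemcitabine, was under the limit at 5.73, 8.88, 8.08 and 4.82 CPM. Rrm1, the large subunit of ribonucleotide reductase, was also under it at 28.9, 38.2, 40.3 and 22.4 CPM.

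Hypoxia and glycolysis genes stood above additivity for the most part, in several cases with control as the highest library. Of 16 measured genes 11 were above, 1 below and 4 between (median 0.92). Aldoa, the glycolytic aldolase, was at 947, 496, 543 and 627 CPM (1.14), Gapdh at 2725, 1712, 1639 and 1938 (0.91) and Tpi1, the triosephosphate isomerase, at 739, 482, 450 and 493 (0.74). In these 3 genes PH and G were below GPH, and GPH was below control. Vegfa, the vessel growth factor, was highest in GPH at 152, 127, 107 and 240 CPM (1.43), as were the glucose transporter gene Slc2a1 at 50.8, 32.6, 38.0 and 69.5 (1.51) and Ndrg1 at 147, 136, 186 and 368 (1.09). Eno1, an enolase, was at 338, 372, 370 and 249 CPM (-0.71), and Ldha, the lactate dehydrogenase, at 1008, 802, 780 and 576 (-0.11). In immune cells 10 of 14 members of the list also stood above, against 19.7% of all genes, and in keratin-high cells 15 of 16, against 16.3%.

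Cholesterol synthesis was the clearest list below additivity outside cell division. Of 7 measured genes 6 were below and none above (median -1.21), and in the same 6 GPH was 1.5-fold or more below each other library. Fdps, which makes farnesyl pyrophosphate, was at 251, 208, 131 and 34.4 CPM (-1.66), Cyp51, a demethylase of lanosterol, at 274, 291, 205 and 70.2 (-1.63), and Hmgcs1, the synthase at the head of the pathway, at 93.8, 77.4, 74.2 and 26.4 (-1.21). Control, PH and G lay near each other in Hmgcs1, and GPH was apart from all 3. Srebf2, the transcription factor of the pathway, was at 57.5, 47.0, 34.1 and 27.0 CPM (-0.05). The list median was -0.83 with the cell states weighted alike and -0.68 without cells with Dcn or Dpt. In keratin-high cells it was -0.40, with 2 of 7 below, against 18.5% of all genes.

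In genes of antigen presentation and interferon signalling PH was mostly the low library. All 6 measured MHC class II genes, which present peptides to helper T cells, stood above additivity (median 1.67). Cd74, the class II invariant chain (chromosome 18, 60803848 to 60812652), was at 498, 164, 600 and 781 CPM, a departure of 1.98 (1.95 to 2.02), and H2-Ab1, a class II beta chain, at 267, 86.0, 244 and 284 (1.85). In H2-Eb1 (358, 118, 325 and 348 CPM, 1.70) control, G and GPH were near each other and PH alone was low. The median log2 ratio of PH to control was -1.55 over the list and that of GPH to G 0.17. In cells with Dcn or Dpt outside mitosis the list median was 1.01, and Cd74 had 1.19 and H2-Aa 0.53. In immune cells, where Cd74 was at 1149, 1149, 5197 and 4917 CPM, the list median was -0.15 with none of 6 above, and in keratin-high cells it was 2.0 with 6 of 6 above.

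MHC class I genes gave 6 of 7 above (median 1.02). H2-T23, a nonclassical class I molecule, was at 135, 70.5, 84.4 and 242 CPM (2.45), and H2-K1, a classical heavy chain, at 437, 275, 533 and 534 (0.67), with PH the only low library. B2m, their light chain, was at 1510, 1568, 1858 and 2395 CPM (0.31). The type I interferon list had 7 of 8 above and 1 below (median 1.66). Zbp1, a sensor of nucleic acids, was at 70.0, 33.1, 49.2 and 109 CPM (2.22), and Bst2, an antiviral tether, at 341, 126, 203 and 204 (1.45). GPH was highest for Zbp1 and control for Bst2. The exception, the T cell attractant Cxcl10, was at 60.5, 102, 236 and 135 CPM (-1.56), with G the highest. In immune cells the interferon list had a median of 0.32 and in keratin-high cells 2.2.

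**Figure D4:**
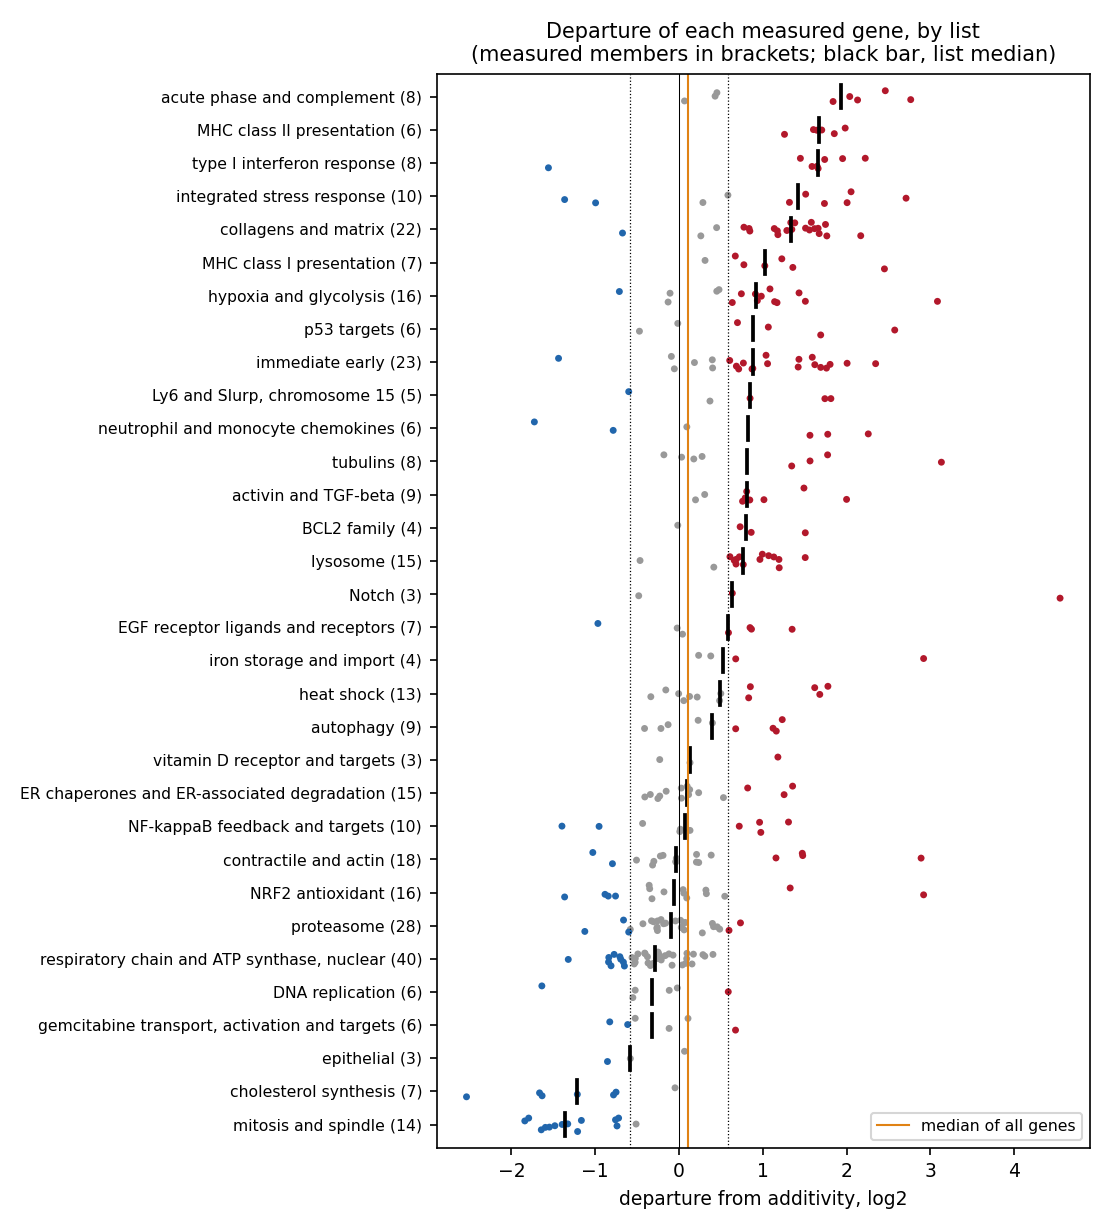
Departure (log2) of every measured gene in the 32 lists with at least 3 measured members, red for 1.5-fold or more above, blue for below and grey between, with the list median as a black bar and the median of all genes (0.11) as an orange line. All 6 MHC class II genes are red, and cholesterol synthesis and mitosis are blue apart from 1 grey gene each.

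Acute phase and complement genes had the highest levels of GPH against the other libraries. In all 8 measured genes GPH was 1.5-fold or more above each other library, and 5 stood above additivity (median 1.94). C1s1, a complement protease, was at 35.8, 25.8, 31.8 and 156 CPM (2.77), and C3, the central complement component, at 23.7, 25.5, 66.3 and 313 (2.13). Lcn2, an iron-scavenging acute phase protein, and Saa3 and Lbp, which bind bacterial products or lipid, were also highest in GPH, with departures within 1.5-fold. Lcn2 was at 3.29, 16.3, 22.2 and 115 CPM, close to its additive level of 110 (departure 0.07), since both PH and G alone exceeded control. Saa3 was at 5.78, 21.9, 22.3 and 114 CPM (0.43) and Lbp at 17.0, 44.8, 41.5 and 150 (0.45). These small departures depend on the setting. That of Lcn2 was -0.59 without mitotic cells and 1.71 with additivity taken on the linear scale, and that of Saa3 was 1.08 and 1.57 in turn and 2.41 without cells with Dcn or Dpt. Mmp19, a matrix protease outside the list, was named for its gap to the other libraries, at 5.84, 9.15, 12.6 and 65.0 CPM (1.72). With the 4 cell states weighted alike the list median was 1.14, and in cells with Dcn or Dpt outside mitosis it was 0.63, with C3 at 0.63 and C1s1 at 1.61.

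The NF-kappaB list was divided. Of 10 genes 4 were above and 2 below, against 22.7% and 11.8% of all genes. The median was 0.07, or -0.10 under median-of-ratios scaling and -0.78 in cells with Dcn or Dpt outside mitosis. Tnfaip3, a brake on the pathway, was at 12.4, 65.9, 23.5 and 47.3 CPM (-1.40), so PH was the highest library. Vcam1, an adhesion molecule, was at 101, 199, 236 and 473 CPM, near its additive level of 468 (0.02), and Nfkbiz at 124, 248, 120 and 242 (0.01), with PH and GPH alike. Tnfaip2 was at 46.7, 54.4, 65.1 and 188 CPM (1.31). Among 6 measured chemokine genes 3 were above and 2 below. The monocyte attractant Ccl2 was at 332, 980, 505 and 864 CPM (-0.79) and the related Ccl7 at 115, 89.0, 105 and 280 (1.78). Cxcl2, a neutrophil attractant, was at 22, 76.1, 98.7 and 103 CPM (-1.73). In GPH, where Cxcl2 was highest, its tumour cell level was under 1/10 of that in immune or keratin-high cells. The chemokine median was 0.83, and -0.018 without cells with Dcn or Dpt.

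Immediate early genes, which respond within minutes to growth factors, stress and tissue dissociation, stood above additivity in 17 of 23 cases, with 1 below (median 0.88). Socs3, a feedback inhibitor of cytokine signalling, was at 227, 113, 76.8 and 195 CPM (2.35), Zfp36, which destabilises cytokine mRNAs, at 106, 115, 54.2 and 206 (1.8), and Klf6, a zinc finger factor, at 163, 212, 152 and 605 (1.62). In the AP-1 genes Jun (615, 580, 354 and 903 CPM, 1.43) and Junb (3140, 2662, 1443 and 3279, 1.42) G was the low library. Fos was closer to additive at 789, 956, 426 and 680 CPM (0.40), and Nr4a2, a nuclear receptor, lay below at 19.7, 68.9, 45.4 and 58.6 (-1.44). Heat shock genes had 5 of 13 above and none below (median 0.48), against 22.7% and 11.8% of all genes. Dnajb1 at 624, 324, 716 and 1144 CPM (1.62), Hsph1 at 61.5, 29.5, 91.9 and 141 (1.68) and Cryab at 64.6, 26.6, 61.7 and 87.2 (1.78) shared a low level in PH. Whether the time or stress of dissociation differed between the libraries was not tested.

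Of the p53 targets, 4 of 6 measured genes were above (median 0.88). Phlda3, an inhibitor of AKT, was at 69.7, 29.1, 26.7 and 66.4 CPM (2.58) and split the library pairs. Cdkn1a, which encodes the cell cycle inhibitor p21, was at 33.5, 40.4, 65.8 and 57.3 CPM (-0.47), highest in G, and Bax, which permeabilises mitochondria, at 124, 98.4, 99.6 and 78.0 (-0.01). In the BCL2 family Bcl2l11, which encodes the death activator BIM, was at 86.6, 64.9, 88.7 and 189 CPM (1.51) and Mcl1, a survival protein, at 113, 105, 131 and 222 (0.86).

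The antioxidant genes under NRF2 were mixed. Of 16 measured genes 2 were above and 4 below (median -0.07), against 22.7% and 11.8% of all genes. Nfe2l2, which encodes NRF2, was at 139, 121, 135 and 295 CPM (1.33), and beside Hmox1 it was the one gene above. Its known targets Gclm (47.9, 62.9, 70.3 and 81.5 CPM, -0.18), Txnrd1 (39.2, 61.9, 58.3 and 72.0, -0.36) and Srxn1 (16.1, 17.9, 39.6 and 64.3, 0.55) were highest in GPH yet within 1.5-fold of additivity. Idh1, which makes NADPH, was at 44.9, 123, 28.9 and 43.1 CPM (-0.88), with PH alone high. Of the iron genes, Ftl1 and Fth1, both ferritin chains, were at 1717, 1642, 1635 and 2500 CPM (0.68) and 5579, 5942, 5066 and 6348 (0.23).

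Of the lists, matrix genes had the most members above additivity, 19 of 22 with 1 below (median 1.34). Bgn, a small proteoglycan (chromosome X, 73483602 to 73495933), was at 127, 50.6, 156 and 280 CPM (2.17), and Has2, which makes hyaluronan, at 22.8, 19.2, 68.4 and 172 (1.58). Fn1, fibronectin, was at 592, 841, 542 and 1384 CPM (0.85) and Col6a1 at 184, 183, 127 and 316 (1.33). Dcn itself was highest in control, at 182, 79.6, 109 and 162 CPM (1.77). Nid1, a basement membrane linker, lay below at 53.1, 113, 59.1 and 78.8 (-0.67), with PH alone high. The share of cells with a UMI of Dcn or Dpt, a class defined by matrix genes, was highest in GPH as well. The list median was 1.09 without those cells and 0.92 with the 4 states weighted alike. Activin and TGF-beta genes had 7 of 9 above (median 0.81), among them Inhba, the activin A subunit, at 55.2, 53, 123 and 332 CPM (1.49) and Id3, an inhibitor of differentiation factors, at 162, 113, 102 and 285 (2.0). In cells with Dcn or Dpt outside mitosis that median was 0.27.

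Of the cytoskeletal genes, the contractile list was close to additive and the tubulin list was not. Of 18 contractile and actin genes 4 were above, 2 below and 12 between (median -0.03). Both counts are near the shares of all genes, 22.7% above and 11.8% below. Beside Acta2, the YAP targets Ccn1 (36.3, 22.3, 30.8 and 52.7 CPM, 1.48), Amotl2 (29.5, 24.9, 25.3 and 59.2, 1.47) and Ankrd1 (108, 47.7, 61.3 and 60.3, 1.16) were above, while Cald1, caldesmon, was at 332, 647, 448 and 428 (-1.03). Of 8 tubulin genes 4 were above and none below (median 0.81, or 1.02 with the 4 states weighted alike): beside Tuba1c these were Tuba1b (418, 168, 210 and 249 CPM, 1.56), Tuba1a (207, 95.6, 117 and 138, 1.35) and Tubb2a (64.5, 33.8, 97.3 and 174, 1.77). Control was the highest library for Tuba1a and Tuba1b and GPH for Tubb2a. The 3 alpha-tubulin genes are near-identical in sequence, as are Nme1 and Nme2, Hist1h2ap and other histone genes, and the class I heavy chains, and how reads that fit several copies were counted is not given in the sources used here, so the values of single members are uncertain.

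In the smaller lists, 3 Notch genes were measured: beside Hes1, the receptor gene Notch2 stood above at 99.1, 71.0, 77.2 and 85.9 CPM (0.64), and Rbpj, the DNA-binding partner of Notch, was within 1.5-fold at 79.2, 88.1, 86.1 and 68.6 (-0.48). EGF receptor genes had 4 of 7 above and 1 below (median 0.59). Egfr was at 21.9, 18.6, 28.7 and 62.2 CPM (1.35), its ligand gene Ereg at 55.8, 117, 69.0 and 149 (0.04) and the ligand gene Areg at 53.1, 62.3, 80.0 and 48.0 (-0.97). In cells with Dcn or Dpt outside mitosis this median was -0.12. Of 5 measured Ly6 and Slurp genes on chromosome 15, 3 were above and 1 below. Ly6c1 (76.0, 43.5, 81.4 and 164 CPM) and Ly6a (261, 140, 235 and 421) had departures of 1.81 and 1.74 and Slurp1 (128, 71.6, 73.3 and 53.1) 0.37. Ly6e was at 295, 263, 236 and 379 CPM (0.85), and Lypd2, the member below, at 34.9, 34.5, 63.0 and 41.1 (-0.60). The prolactin family had no measured member.

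Mitosis genes were the other group below additivity. Of 14 measured mitosis genes 13 were 1.5-fold or more below, none above (median -1.36). Birc5, survivin of the chromosomal passenger complex (chromosome 11, 117849251 to 117855743), was at 101, 95.1, 133 and 35.1 CPM, a departure of -1.84 (-1.95 to -1.73). Cenpf, a kinetochore protein, was at 79.9, 112, 138 and 55.9 CPM (-1.79), Mki67, the proliferation marker, at 44.9, 62.1, 66.7 and 35.1 (-1.40), and Top2a, which untangles chromosomes, at 219, 204, 276 and 156 (-0.72). In each of these G was the highest library and GPH the lowest. Of 6 measured replication genes 1 stood above, 1 below and 4 between (median -0.32), against 22.7% above and 11.8% below over all genes. The 1 below was Dut, which keeps uracil out of DNA, at 244, 249, 279 and 91.5 CPM (-1.64). The 1 above was Mcm7, at 69.2, 41.6, 51.6 and 46.6 CPM (0.59), at the edge of the threshold. The clamp gene Pcna was at 128, 146, 160 and 124 CPM (-0.55).

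The share of mitotic cells likewise was lowest in GPH, at 13.4%, and highest in G, at 38.8%. That state is called from Top2a, Mki67, Cenpf and Ube2c, which are also members of the list. The share and the departures of these genes are thus not separate results. Weighting the states alike makes these departures smaller in part by definition. With the 4 cell states weighted alike, the mitosis median was -0.10, Birc5 had -0.55, Mki67 -0.10, Dut -0.79, and Nusap1, a spindle protein, 0.70 in place of -0.51. With mitotic cells left out, Dut had -1.76. In tumour cells without Dcn or Dpt the mitosis median was -0.52. In keratin-high cells it was 0.18, with 4 of 14 above and 3 below, against 16.3% and 18.5% of all genes, and in immune cells 1.04. In sums over cells, fewer cells of a state and less RNA per cell cannot be told apart.

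Promoters of mitosis genes often hold CCAAT boxes, which NF-Y binds. The letters CCAAT stood on either strand in the 250 bases before the start of 11 of 13 mitosis genes with an entry, against 33.8% of all promoters, and the element TTTGAA, on either strand, in 7 of 13 against 16.0%. Ccnb2, which encodes a mitotic cyclin and was at 34.0, 41.0, 61.6 and 26.6 CPM (-1.48), is shown as the member with 3 boxes, in capitals, in the window chr9:70421555-70421804 on the minus strand.
Ccnb2: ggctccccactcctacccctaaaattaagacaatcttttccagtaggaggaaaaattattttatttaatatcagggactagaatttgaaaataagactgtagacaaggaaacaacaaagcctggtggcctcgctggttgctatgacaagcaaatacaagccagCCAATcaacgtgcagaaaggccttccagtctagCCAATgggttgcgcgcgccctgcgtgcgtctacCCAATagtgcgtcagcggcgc
These matches describe the windows and were not set against the departures of single genes.

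**Figure D5:**
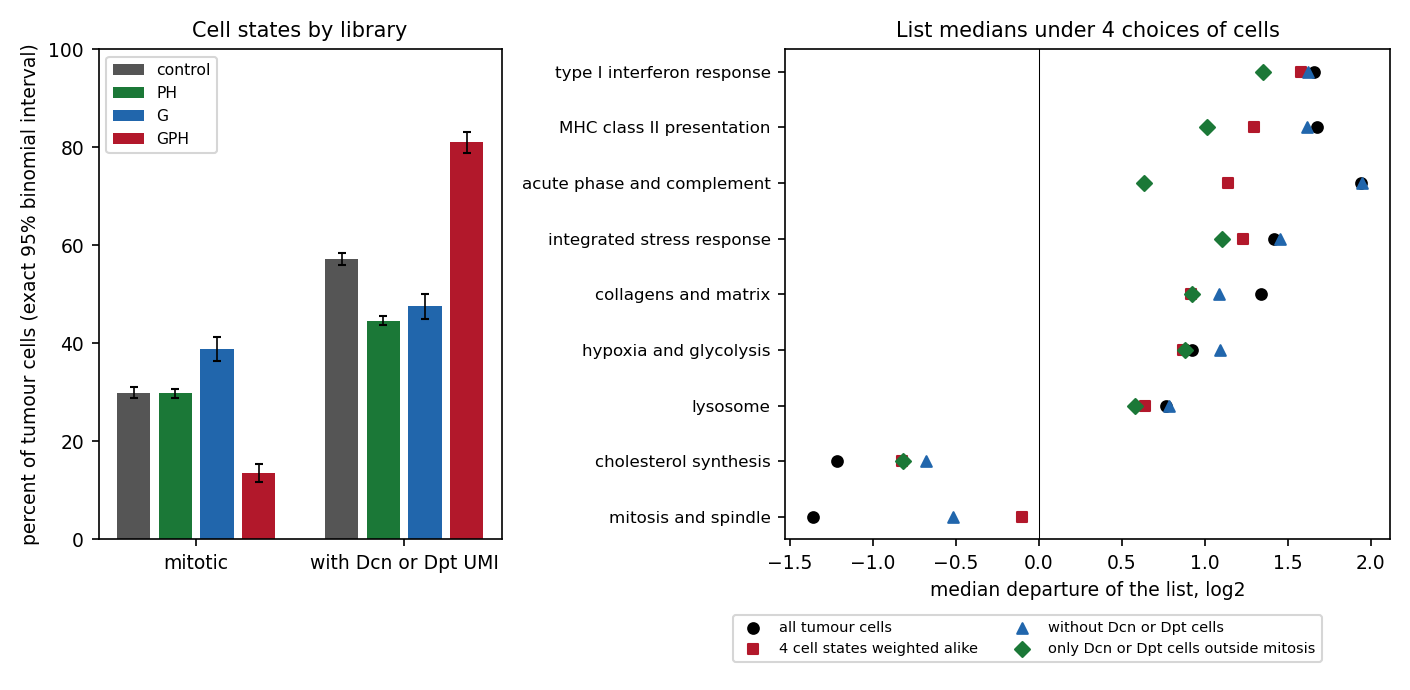
Left, the percent of tumour cells that were mitotic or held a UMI of Dcn or Dpt in each library, with exact 95% binomial intervals. Right, the median departure (log2) of 9 lists over 4 choices of cells: the mitosis median is -1.36 in all cells and -0.10 with cell states weighted alike and has no value outside mitosis, the acute phase median is 0.63 in cells with Dcn or Dpt outside mitosis, and the other 7 lists keep their side of 0.

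Respiratory chain genes leaned below additivity, and proteasome genes stayed near it. Of 40 nuclear genes of the respiratory chain and ATP synthase, none was above, 9 were below and 31 between (median -0.29). Over all genes 22.7% were above and 11.8% below, with a median of 0.11. In keratin-high cells 15 of the 40 were below, against 18.5% of all genes, and in immune cells 4, against 10.2%. Ndufa4, a cytochrome oxidase subunit, was at 983, 1135, 1169 and 539 CPM (-1.32), and it was also low in immune (-1.41) and keratin-high cells (-1.81). Of 28 proteasome genes 23 were within 1.5-fold of additivity (median -0.10). The keratin genes Krt8 (507, 604, 541 and 356 CPM) and Krt18 (746, 693, 634 and 394), ductal markers still present in cells with little Krt19, had departures of -0.85 and -0.58.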

How the data were processed

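Tumour pieces from 3 animals per group were digested and single cells were profiled on droplets (10x Genomics), per the labels' protocols. The deposited values are UMI counts per gene and barcode. Cell Ranger 6.1 and mm10 are named in the submitters' processing notes, while the file headers give Cell Ranger 7.0.1. Raw counts were summed per library over tumour cells and divided by their total to give CPM. Features that share a symbol (38 symbols) were summed. Library size is given with the results, and intervals cover counting error only.

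With 1 library per group nothing was tested: departures, folds of 1.5 or more and 95% counting intervals are descriptions. Named genes were the 10 highest and the 10 lowest by the interval's bound nearest 0, the 5 with GPH farthest above and the 5 with GPH farthest below the other libraries, the highest and lowest member of each list, and genes that define a list. Mitochondrial, ribosomal protein, haemoglobin, immunoglobulin and T cell receptor genes, Xist, Tsix and Y-linked genes, predicted genes, genes of the cell rule and genes under 1/10 of their level in immune or keratin-high cells were left out of that naming. Some genes that meet this rule are not reported here. The members and lists were chosen with earlier results of these data known. Positions come from GENCODE vM21, in which all 97 named genes were found. Scrublet in scanpy 1.11.5 called 0, 0, 0 and 1 doublets and so did not work. Doublets were kept, and the highest scores were left out as an alternative. In all, 16 alternatives were planned and 2 were added after seeing the data. Scripts ran in Python 3.11.15 with numpy 2.4.6, pandas 2.3.3 and scipy 1.17.1 and were tested on simulated data.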

Additional observations from a re-analysis of the deposited data

Results flagged for a closer look

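For 12 genes among the highest and lowest departures, PH against control and GPH against G differed by 1.5-fold or more in opposite directions. Over all 2639 genes, 87 (3.30%) were lower in PH than in control and higher in GPH than in G, and 9 (0.341%) were the reverse. Genes picked for an extreme difference between these ratios are drawn towards opposite directions by that choice, so their number is not a separate result. The difference between the 2 ratios, which is the departure, was not tested, since each group is 1 library. Upward departures of this kind were 4.55 for Hes1, 4.02 for Nmt1, 4.0 for Spata7, 3.09 for Hk2, 3.13 for Tuba1c, 2.94 for AY036118, 2.92 for Hmox1, 2.95 for Clu, 2.89 for Acta2 and 2.84 for Gadd45g. Downward ones were -3.06 for Bloc1s1 and -2.13 for Hmga1.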

How the results depend on the processing

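No paired analysis was possible because each group is 1 library, and for the same reason no replicate could be left out. With genes at 20 CPM in 1 library admitted, 1369 genes stood above and 508 below additivity. The counts of genes with 1 library apart, above and below, were then 52 and 87 for control, 20 and 82 for PH, and 28 and 25 for G, with 647 above for GPH, and control and GPH together were above for 91 and below for 15. With 50 CPM required in every library, 296 genes stood above additivity and 208 below, and the median departure was 0.03. The counts were then 14 and 14 for control, 3 and 18 for PH, 3 above for G, 128 and 87 for GPH, and 17 and 2 for the pair. G was below for 8 genes under median-of-ratios scaling and above for 9 with Vim at 40 per 10000, for 9 without any Krt19 UMI and for 9 without cells with Dcn or Dpt. PH was below for 29 without any Krt19 UMI. GPH was below for 89 without mitotic cells, and above for 198 and below for 70 with the 4 states weighted alike. In cells with Dcn or Dpt outside mitosis, an alternative added after seeing the data, control was above for 45 and below for 88, PH above for 20, and GPH above for 169 and below for 63. Among list medians of 1.5-fold or more, a sign changed for chemokines (-0.018 without cells with Dcn or Dpt) and EGF receptor genes (-0.12 in cells with Dcn or Dpt outside mitosis). Of the medians nearer 0, 8 crossed it under at least 1 setting. Their lowest and highest values were -0.78 and 0.27 for NF-kappaB, -0.66 and 0.21 for DNA replication, -0.63 and 0.07 for gemcitabine genes, -0.22 and 0.18 for the proteasome, -0.15 and 0.21 for contractile genes, -0.18 and 0.09 for NRF2, -0.06 and 0.23 for ER chaperones, and -1.05 and 0.06 for epithelial genes. Additivity on the linear scale gave no counts of libraries apart. The filters change which genes are counted, and the cause of the other shifts was not tested. Depth limits G and GPH most, with 24870616 and 27151544 UMIs.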
